A study of Saccharomyces cerevisiae with 6 samples.

Results

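The genes described here encode the factors that assemble the large (60S) ribosomal subunit of budding yeast and carry it out of the nucleus. They were chosen by name, as 58 open reading frames (ORFs) for pre-60S assembly factors, helicases, GTPases and export factors that lie outside chromosomes XII and XIII, and all 58 had a row among the 6212 rows of the table (5196 of them outside those chromosomes). Wild type BY4741 cells, *ptc6* cells, which lack the type 2C protein phosphatase Ptc6, and *ptc1 ptc6* cells, which also lack the phosphatase Ptc1, were grown in rich medium (YPD), and 1 culture of each strain was split into a part that received 200 ng/ml rapamycin for 1 h and a part that received the vehicle alone (mock). BY4741 is auxotrophic through its his3, leu2, met15 and ura3 alleles, and both mutants were made in it, so all 3 strains share this background. RNA of the rapamycin and mock parts was hybridised together on arrays of PCR-amplified ORFs, on 2 arrays per strain with the dyes swapped, which gives 6 arrays and 1 biological replicate per strain.

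Each value is the log2 ratio of rapamycin over mock on 1 array: -1 is a 2-fold and -2 a 4-fold lower signal after rapamycin. The mean of both arrays stands for a strain, a gene counts as down-regulated where that mean is below -1, and a gene is valid in a strain only with a value on both arrays. As the arrays of a strain carry the same pair of RNA extracts, their spread is technical, no test between strains was possible and no p-value is given. A pair of strains is called apart for a gene when both values of one lie above both values of the other. Since the same mass of total RNA was labelled for each sample, fewer copies of a transcript per cell and a larger amount of other RNA cannot be told apart, and the arrays give changes, not levels that could be compared between genes.

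Assembly of the 60S subunit begins in the nucleolus, where early factors fold and process the precursor of the 25S and 5.8S ribosomal RNAs. The particle then passes through the nucleoplasm, where the Rix1 complex and the ATPase Rea1 act on it, and is exported with the adaptor Nmd3. The last factors are stripped from it in the cytoplasm. The genes for these factors belong to the ribosome biogenesis regulon, a large set of genes that yeast transcribes while the TORC1 kinase is active, and rapamycin inhibits TORC1.

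*RPF2*, the gene with the largest difference between *ptc6* and wild type cells among those described here, was also the one for which the study designed primers for reverse transcription PCR. They are shown because they tell which transcript is meant. Both are 21 bases long, the forward primer starting at position 801 and the reverse primer at position 931 counted from the A of the start codon. The PCR measurements themselves are not analysed here.
RPF2 forward: catgggtgataaattgggtag
RPF2 reverse: cttcatctacctctccatcac

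Of the 58 genes, 46 were valid in wild type, 53 in *ptc6* and 49 in *ptc1 ptc6* cells, and 44 had a value on all 6 arrays. *NOC2*, *NOG2* and *NOP16* had no value on any array, and *URB2* had 1, of -1.83 on array 2 of *ptc1 ptc6*. A further 8 genes were measured in wild type cells on array 1 alone, with log2 ratios of -3.93 (*PRP43*), -3.73 (*NOG1*), -3.23 (*IPI3*), -3.12 (*MAK5*), -2.87 (*NOP4*), -2.45 (*RIX1*), -2.12 (*URB1*) and -1.83 (*CGR1*). All 8 were below -1 there, and they enter no wild type mean.

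Over the whole series, array medians over all rows lay between 0.01 and 0.10. *PTC6* itself had ratios of 1.11 and 0.62 in wild type cells and no value on any array of the mutants, while *PTC1* had a single value (-0.28, wild type array 2), so it gives no check of the double mutant. *GAP1*, a general amino acid permease gene that rapamycin induces, was raised on every array, with log2 ratios from 5.29 (*ptc1 ptc6*) to 7.21 (wild type). For 14 chromosomes the strain means of *ptc1 ptc6* and wild type cells correlated across genes at 0.939 to 0.973, against 0.0156 for chromosome XII and 0.543 for chromosome XIII. All figures over all genes below therefore leave out those chromosomes, which carry none of the 58 genes.

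In wild type cells, rapamycin lowered nearly every measured 60S assembly gene. Down-regulation was found in 42 of 46 valid genes, where 18.1% of all valid genes were down-regulated, and none of the 46 was up-regulated. Their median log2 ratio was -2.38 (-2.37 and -2.38 on arrays 1 and 2), against 0.04 over all genes. The means ran from -5.38 to 0.38, with quartiles of -3.57 and -1.74. On both arrays separately, 40 of the 46 genes were below -1, as were 490 of 2960 over all genes.

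**Figure D1:**
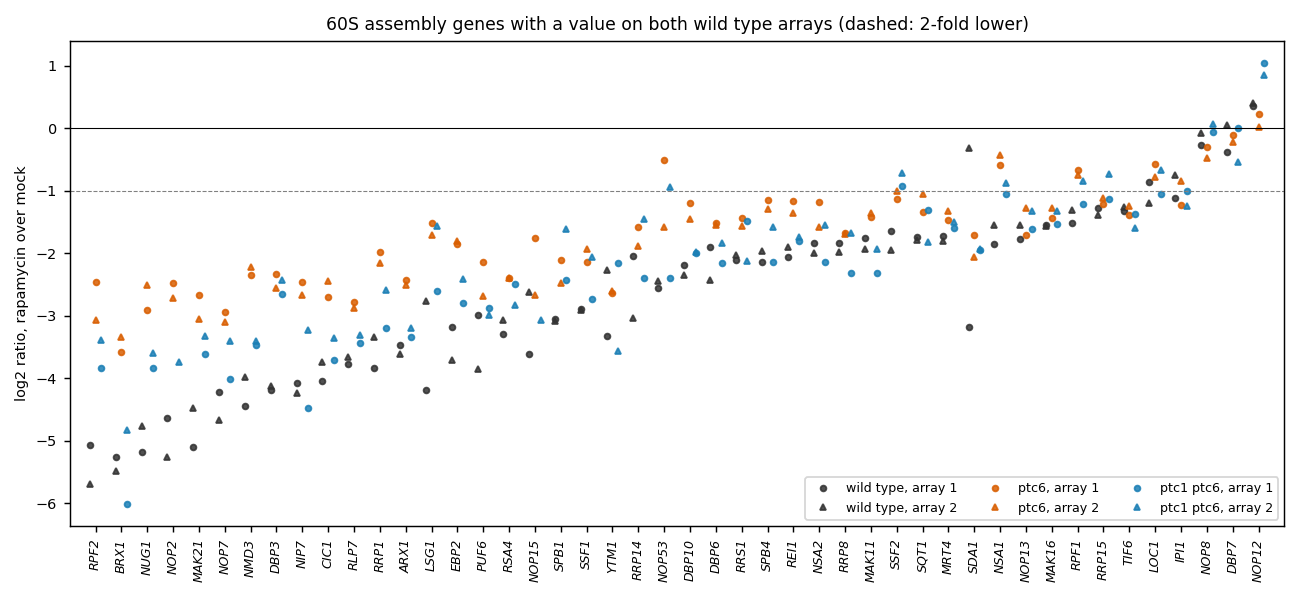
Log2 ratio of rapamycin over mock (vertical axis) of the 46 60S assembly genes with a value on both wild type arrays, ordered by their wild type mean along the horizontal axis. Circles are array 1 and triangles array 2 of wild type (dark), *ptc6* (orange) and *ptc1 ptc6* (blue) cells, and the dashed line marks a 2-fold decrease. At the left, where wild type values are lowest, the *ptc6* points sit clearly above them. Toward the right the differences are mostly smaller, but not every gene overlaps. *NSA1* and *RPF1* keep *ptc6* above wild type, and *NOP12* has all 3 strains apart.

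Among the factors of the first nucleolar particles, *MAK21* (YDR060W), which encodes the Noc1 partner of Noc2, was the most repressed, with log2 ratios of -5.09 and -4.48 in wild type, -2.67 and -3.05 in *ptc6* and -3.61 and -3.32 in *ptc1 ptc6* cells. The 3 strains were thus fully separated, with wild type lowest and *ptc6* highest. *PUF6*, for a Pumilio-repeat protein, and *RRP14*, for an early nucleolar factor, had wild type means of -3.42 and -2.54. *MAK16*, *RRP15* and *LOC1*, which encode further early factors, were closer to the threshold, at -1.55, -1.33 and -1.03. *NOP8* (YOL144W), whose product works with Urb1 and Urb2 in the earliest 60S precursor, stood at -0.27 and -0.08 in wild type, -0.30 and -0.47 in *ptc6* and -0.06 and 0.07 in *ptc1 ptc6* cells. It passed 2-fold in no strain.

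*RPF2* (YKR081C) encodes a Brix-domain protein that, with Rrs1, brings the 5S ribonucleoprotein into the particle. It had ratios of -5.07 and -5.69 in wild type, -2.46 and -3.07 in *ptc6* and -3.84 and -3.39 in *ptc1 ptc6* cells, that is a 41.6-fold, a 6.80-fold and a 12.2-fold decrease of the mean. All 6 arrays showed strong repression, and the values of the 3 strains did not overlap. The gene for its partner, *RRS1*, was repressed far less, with means of -2.07, -1.50 and -1.80 in the same order.

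*BRX1* (YOL077C), for another Brix-domain factor, was as repressed as *RPF2* in wild type cells, at -5.26 and -5.49. In *ptc6* cells it had -3.57 and -3.33, and in *ptc1 ptc6* cells -6.01 and -4.82, so the double mutant overlapped wild type and only *ptc6* stood apart. The Brix-domain gene *RPF1* (YHR088W) was the mildest of the group, at -1.52 and -1.30 in wild type, -0.66 and -0.74 in *ptc6* and -1.21 and -0.84 in *ptc1 ptc6* cells, and its *ptc6* mean no longer passed 2-fold. *SSF1* and *SSF2*, paralogs of the same family, had wild type means of -2.90 and -1.80, and cross-hybridisation between their closely related ORFs was not tested.

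The A3 factors, which are needed to trim the first internal spacer of the precursor RNA, and the proteins grouped with them ranged in wild type cells from a mean of -4.43 to one of 0.38. *NOP7* (YGR103W), for the central protein of the A3 group, had -4.21 and -4.66 in wild type, -2.93 and -3.09 in *ptc6* and -4.02 and -3.39 in *ptc1 ptc6* cells. *CIC1*, *RLP7* and *NOP15*, for other A3 factors, had wild type means of -3.89, -3.71 and -3.11, and *RRP1* and *EBP2*, for a protein of the Nsa1 module and the partner of Brx1, had -3.58 and -3.43. All of these wild type means were below -3, but the arrays of *NOP15* gave -3.61 and -2.61. *YTM1*, for the WD40 partner of Nop7, was also uncertain, since its arrays gave -3.32 and -2.26 in wild type and -2.15 and -3.56 in *ptc1 ptc6* cells.

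*NOP12* (YOL041C), for an RNA-binding protein of the same group, was the only one of the 46 with a positive wild type mean. Its ratios were 0.36 and 0.41 in wild type, 0.23 and 0.03 in *ptc6* and 1.05 and 0.85 in *ptc1 ptc6* cells. The strains were apart, but in the order *ptc6*, wild type, *ptc1 ptc6*, and no mean passed 2-fold upwards.

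For the enzymes, *DBP3* (YGL078C) was the lowest of the DEAD-box RNA helicase genes, with -4.19 and -4.12 in wild type, -2.33 and -2.55 in *ptc6* and -2.64 and -2.43 in *ptc1 ptc6* cells. Here the mutants overlapped each other and both lay well above wild type. *DBP10*, *DBP6* and *SPB4*, for helicases of the same class, had wild type means of -2.27, -2.16 and -2.04. *DBP7* (YKR024C), for another of them, was near 0 throughout, with -0.37 and 0.06 in wild type, -0.10 and -0.22 in *ptc6* and 0.00 and -0.54 in *ptc1 ptc6* cells, so genes for enzymes of one class ranged from no 2-fold change to a 17.8-fold decrease.

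*NOP2* (YNL061W), for a cytosine methyltransferase of 25S rRNA, had -4.64 and -5.25 in wild type cells. It had -2.48 and -2.71 in *ptc6* cells, and the single value of *ptc1 ptc6* cells, -3.73, lay between the other strains. *RRP8* (YDR083W), for an adenine methyltransferase of the same RNA, gave -1.84 and -1.97, then -1.67 and -1.69, then -2.31 and -1.68, with little separation between strains. The nucleolar GTPase gene *NUG1* (YER006W) was among the strongest responders, with -5.18 and -4.76 in wild type, -2.90 and -2.51 in *ptc6* and -3.83 and -3.60 in *ptc1 ptc6* cells. For the first and the last of these genes, *ptc6* was well above wild type, and *NUG1* separated all 3 strains.

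Among the remaining nucleolar factors, *NIP7* (YPL211W), for a partner of Nop8, had -4.07 and -4.24 in wild type, -2.45 and -2.67 in *ptc6* and -4.48 and -3.23 in *ptc1 ptc6* cells. Only *ptc6* was apart from wild type. *TIF6* (YPR016C), for the factor that keeps the subunits from joining too early, was the mildest repressed gene of this group and moved little with the strain, with -1.32 and -1.25, -1.39 and -1.24, and -1.36 and -1.59 in wild type, *ptc6* and *ptc1 ptc6* cells. *MAK11*, *MRT4* and *NOP13*, for a WD40 protein, a P0-like protein and an RNA-binding protein, had wild type means of -1.85, -1.76 and -1.66.

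Nucleoplasmic factors were represented by 5 genes in wild type. *RSA4* (YCR072C), whose product is pulled from the particle by Rea1, was lowest, with -3.29 and -3.06 in wild type, -2.39 and -2.40 in *ptc6* and -2.48 and -2.83 in *ptc1 ptc6* cells. *IPI1* (YHR085W), for a subunit of the Rix1 complex, lay about the threshold in every strain, with -1.11 and -0.74, -1.22 and -0.84, and -1.0 and -1.24. For *RIX1* and *IPI3*, which encode its partners, only the mutants were valid, with means of -1.98 and -2.25 in *ptc6* and -1.92 and -3.31 in *ptc1 ptc6* cells. *SDA1* (YGR245C), for a factor of nucleoplasmic particles, had -3.17 and -0.31 on the wild type arrays, the widest gap of any 60S assembly gene in wild type, against -1.71 and -2.05 in *ptc6* and -1.94 and -1.93 in *ptc1 ptc6* cells. Its wild type mean of -1.74 therefore describes neither array.

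All 5 factors that act at export or in the cytoplasm were repressed on every array. *NMD3* (YHR170W), for the adaptor that links the particle to the exportin Crm1, had -4.44 and -3.98 in wild type, -2.35 and -2.21 in *ptc6* and -3.47 and -3.40 in *ptc1 ptc6* cells. *LSG1* (YGL099W), for the cytoplasmic GTPase that releases Nmd3, had -4.19 and -2.76, then -1.51 and -1.71, then -2.61 and -1.56. *NMD3* separated the strains fully, while for *LSG1* the double mutant overlapped *ptc6*.

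*ARX1* (YDR101C), for an export factor, gave -3.47 and -3.61 in wild type, -2.42 and -2.50 in *ptc6* and -3.34 and -3.20 in *ptc1 ptc6* cells. *REI1* (YBR267W), whose product recycles Arx1, had -2.05 and -1.89, -1.16 and -1.35, and -1.80 and -1.74 in the same strains. *SQT1* (YIR012W), for the chaperone of the ribosomal protein Rpl10, had -1.74 and -1.79, -1.33 and -1.05, and -1.30 and -1.82. *ARX1* and *REI1* were apart in all comparisons, and *SQT1* only between *ptc6* and wild type.

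**Figure D2:**
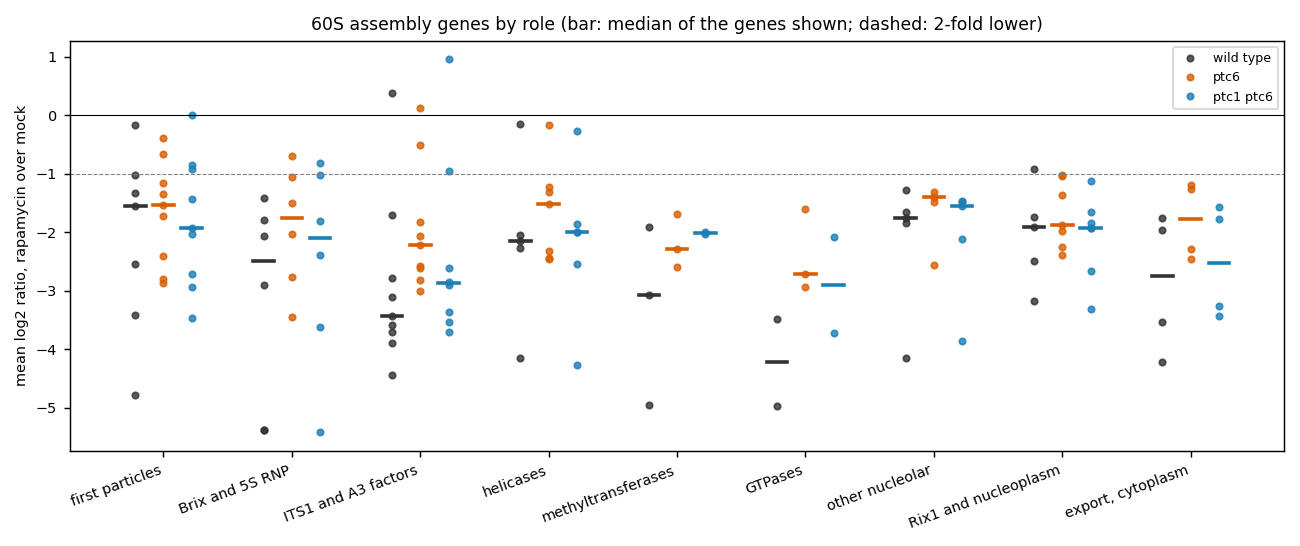
Mean log2 ratio of rapamycin over mock (vertical axis) of each valid 60S assembly gene, by role along the horizontal axis, in wild type (dark), *ptc6* (orange) and *ptc1 ptc6* (blue) cells. Points are genes, bars are medians of the genes shown, and the dashed line marks a 2-fold decrease. Because different genes are valid in different strains, bars do not compare the same genes. Wild type medians run from -1.55 for the first particles to -3.44 for the ITS1 and A3 factors, and to -4.22 for the GTPases, which rest on 2 genes.

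In *ptc6* cells the 60S assembly genes were still repressed, but to a lesser extent. Of 53 valid genes 47 were down-regulated (13.7% of all valid genes were), with a median of -1.82 (-1.71 and -1.88 on arrays 1 and 2). These are not all the genes of the wild type median. Over the 44 genes valid in all 3 strains the median was -1.57 in *ptc6* and -2.21 in wild type cells. *NSA1*, *LOC1* and *RPF1* joined *NOP8*, *DBP7* and *NOP12* above the threshold, at means of -0.51, -0.67 and -0.70. *IPI1* crossed it the other way, from a mean of -0.925 in wild type to -1.03 in *ptc6* cells. The lowest mean was that of *BRX1*, at -3.45.

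For the 46 genes valid in both strains, the *ptc6* value minus the wild type value had a median of 0.79, with medians of 0.76 to 0.90 over the 4 pairs of arrays, against 0.04 over all genes. In 37 of 46 genes *ptc6* lay apart above wild type, where 29.2% of all genes did. *NOP8* and *NOP12* lay apart below it (2 of 46, with 18.2% over all genes), and *NOP15*, *YTM1*, *SDA1*, *NOP13*, *TIF6*, *IPI1* and *DBP7* overlapped.

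The difference was largest for *RPF2* (2.62, from 2.00 to 3.23 over the pairs of arrays), *NOP2* (2.35, 1.93 to 2.77), *NUG1* (2.27, 1.86 to 2.67), *NMD3* (1.93, 1.63 to 2.23), *BRX1* (1.93, 1.69 to 2.16), *MAK21* (1.93, 1.43 to 2.42), *LSG1* (1.87, 1.05 to 2.68) and *DBP3* (1.72, 1.57 to 1.86). In these 8 genes even the smallest of the pairwise differences was over 1 log2 unit. At the other end, it was -0.26 for *NOP12*, -0.21 for *NOP8*, -0.14 for *SDA1* and -0.11 for *IPI1*, and negative in 6 genes in all. Of these 4 only *NOP12* and *NOP8* had *ptc6* and wild type values that did not overlap.

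The part of the wild type response that was missing in a mutant was computed for genes down-regulated in wild type, by dividing the log2 ratio of the mutant by that of wild type and taking the result from 1. It is called the lost part. In *ptc6* cells its median was 0.32 over 42 genes, and 31 of them had lost at least 0.25 of the response (48.3% of all down-regulated genes had, with a median of 0.25). At least 0.50 was lost by *NSA1* (0.70), *NOP53* (0.59), *LSG1* (0.54) and *RPF1* (0.50). These 4 of 42 genes are close to the share over all down-regulated genes, 39 of 520. Leaving out 1 array at a time, *NSA1* stayed between 0.65 and 0.75, whereas *LSG1* ran from 0.42 to 0.62 and *RPF1* from 0.46 to 0.54. *NOP53*, whose product recruits the helicase Mtr4, rested most on 1 array: it had -2.55 and -2.44 in wild type, but -0.50 and -1.57 in *ptc6* cells, and lost 0.80 or 0.37 by either *ptc6* array alone. *NSA1*, for a WD40 protein whose module also holds Rrp1, Rpf1 and Mak16, had -1.85 and -1.55 in wild type against -0.59 and -0.43 in *ptc6* cells. The module did not move as a block, since *RRP1* lost 0.43 and *MAK16* 0.13.

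The difference between *ptc6* and wild type was also set against the depth of the wild type response. Across the 42 repressed 60S assembly genes, the slope of the *ptc6* on the wild type log2 ratio was 0.51 (0.44 to 0.52 over pairs of arrays), against 0.79 (0.74 to 0.78) across the 478 other repressed genes. Wild type array set against wild type array gave slopes of 0.84 to 0.91 across the 60S assembly genes. Across the other repressed genes it gave 0.91 to 0.95. Slopes below 1 thus arose between arrays of 1 strain as well, and more so for the 60S assembly genes. How much of the contrast between 0.51 and 0.79 comes from this was not tested. Genes are not independent replicates, and these slopes are descriptions.

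**Figure D3:**
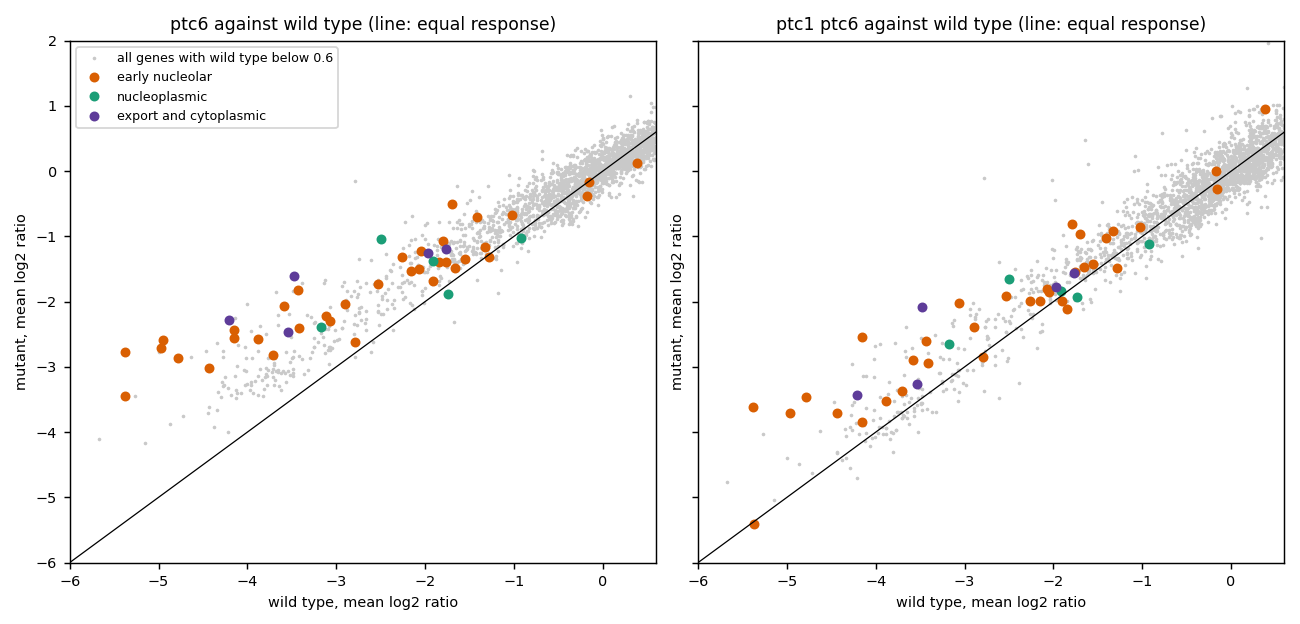
Mean log2 ratio of *ptc6* (left panel) and *ptc1 ptc6* (right panel) cells on the vertical axis against that of wild type cells on the horizontal axis. Coloured points are 60S assembly genes by stage, small grey points all genes outside chromosomes XII and XIII with a wild type mean below 0.6, and the line marks an equal response. Repressed 60S assembly genes bend away from the line in *ptc6* cells, with a slope of 0.51, and less so in *ptc1 ptc6* cells, with a slope of 0.76.

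In steps of the wild type mean, the median difference between *ptc6* and wild type was 0.36 for the 15 genes from -2 to -1, 0.82 for 8 genes from -3 to -2, 1.05 for 10 genes from -4 to -3 and 1.93 for the 9 genes below -4. Other repressed genes of the same depth had 0.40, 0.59, 0.64 and 0.98. As the wild type values enter both the step and the difference, the steps were also set by array 1 and the difference taken from array 2: the medians were then 0.47, 0.95, 0.79 and 1.68 for the 60S assembly genes and 0.28, 0.53, 0.51 and 0.77 for the others. The 60S assembly genes had a larger median than these others in every step, and their medians did not rise evenly from step to step. The others include 60S ribosomal protein genes, 34 of 94 from -4 to -3 and 19 of 46 below -4. They also include genes for assembly of the small (40S) subunit, which alone had medians of 0.22, 0.785, 1.5025 and 1.7125 (2 genes below -4). These 40S medians were lower than those of the 60S assembly genes down to -3 and higher in the deeper steps. The median lost part in these steps was 0.25, 0.38, 0.23 and 0.41 for the 60S assembly genes. The steps hold 8 to 14 of them, and no difference between the gene sets was tested.

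**Figure D4:**
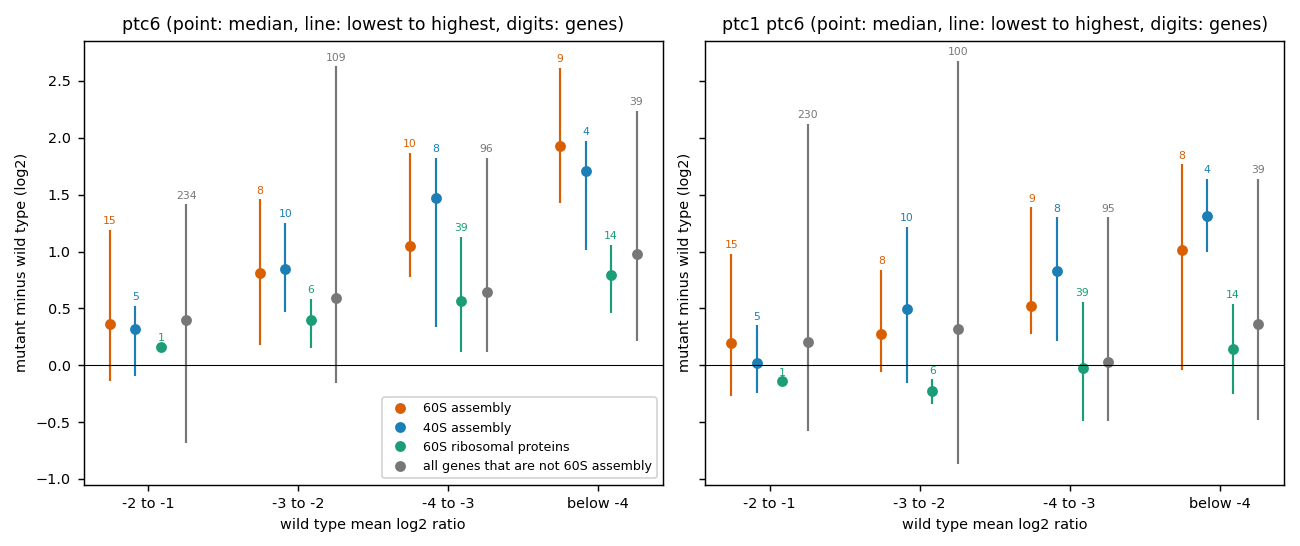
Mutant minus wild type log2 ratio (vertical axis) in 4 steps of the wild type mean log2 ratio (horizontal axis), for *ptc6* (left panel) and *ptc1 ptc6* (right panel) cells. Points are medians, lines run from the lowest to the highest gene and digits give the number of genes. Below -4 in *ptc6* cells, the 60S assembly genes have a median of 1.93, the 40S assembly genes one of 1.705 (4 genes) and the 60S ribosomal protein genes one of 0.79. From -4 to -3 the 40S assembly genes are higher, at 1.47 against 1.045 for the 60S assembly genes. From -3 to -2 the medians are 0.845 and 0.815, and from -2 to -1 they are 0.315 and 0.365.

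In *ptc1 ptc6* cells 42 of 49 valid genes were down-regulated (14.6% of all valid genes were), with a median of -1.99 (-2.31 and -1.93 on arrays 1 and 2). *SSF2*, *LOC1*, *RRP15* and *NSA1* had means of -0.82, -0.86, -0.92 and -0.96 and, with *NOP8*, *DBP7* and *NOP12*, did not pass. The deepest means were those of *BRX1* (-5.42) and of the helicase gene *MAK5* (-4.27, with -5.26 and -3.28 on its arrays).

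The difference between *ptc1 ptc6* and wild type cells had a median of 0.32 over 44 genes, with 0.19 to 0.48 over pairs of arrays, against -0.03 over all genes. It shares the wild type arrays with the difference described for *ptc6*. In 26 of 44 genes the double mutant lay apart above wild type (19.3% of all genes did) and in 1 of 44, *TIF6*, apart below it (23.1% of all genes did). The largest differences were those of *RPF2* (1.77, 1.23 to 2.30 over pairs of arrays), *DBP3* (1.62, 1.48 to 1.76), *LSG1* (1.39, 0.15 to 2.63), *MAK21* (1.32, 0.87 to 1.77) and *NUG1* (1.26, 0.93 to 1.58). That of *LSG1* was the least even between arrays.

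The lost part of the response in *ptc1 ptc6* cells had a median of 0.13 over 40 genes, and 11 of them lost at least 0.25 (21.0% of all down-regulated genes did, with a median of 0.10). *SSF2* lost most, at 0.55 (0.49 to 0.61 leaving out 1 array), with -1.64 and -1.95 in wild type against -0.92 and -0.71 in the double mutant. The slope on wild type was 0.76 (0.65 to 0.77 over pairs of arrays), against 0.98 (0.90 to 0.96) for other repressed genes. *DBP3* lost nearly the same part in both mutants, 0.41 in *ptc6* and 0.39 in *ptc1 ptc6* cells, with 0.36 to 0.44 over both when 1 array was left out. *NIP7* lost 0.38 in *ptc6* cells and 0.07 in *ptc1 ptc6* cells, where the value ran from -0.08 to 0.22 by either array alone.

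Set directly against each other, *ptc1 ptc6* cells had lower log2 ratios than *ptc6* cells for most 60S assembly genes. The median difference was -0.45 over 49 genes (-0.64 to -0.31 over pairs of arrays), against -0.09 over all genes. Of the 49 differences 41 were negative, as were 1965 of 3078 over all genes. In 25 of 49 genes the double mutant lay apart below *ptc6* (25.7% of all genes did). It lay apart above in 4 of 49 (11.5% of all genes did), which were *NOP12* (by 0.82), *NOP4* (0.76), *NOP8* (0.39) and *SSF2* (0.25). The most negative differences were those of *BRX1* (-1.97) and *MAK5* (-1.95), followed by *NIP7* at -1.29, *URB1* at -1.18 and *NMD3* at -1.16. *BRX1*, *MAK5* and *NIP7* are 3 of the 7 genes whose *ptc1 ptc6* arrays differed by more than 1.

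Both mutants carry the *ptc6* deletion, but rapamycin was in Cy3 on array 1 of wild type and *ptc6* cells and in Cy5 on array 1 of *ptc1 ptc6* cells, and on array 2 the reverse. Array 1 minus array 2 averaged -0.10 in wild type, 0.10 in *ptc6* and -0.28 in *ptc1 ptc6* cells over the 60S assembly genes. The arrays of a strain correlated across these genes at 0.908, 0.924 and 0.886, and the gap between them was over 1 in 3, 1 and 7 genes.

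The early nucleolar factors were compared with the late ones, that is the 5 genes for export and cytoplasmic factors. In wild type cells the median was -2.40 for 36 early genes, -1.92 for 5 nucleoplasmic genes and -3.48 for the 5 late genes, and the late genes, from -4.21 to -1.77, lay within the early ones, of which 6 were lower than every late gene and 11 higher. In *ptc6* cells the medians were -1.83, -1.88 and -1.61, and in *ptc1 ptc6* cells -2.02, -1.92 and -2.09. The difference between *ptc6* and wild type had medians of 0.82, 0.55 and 1.08, and that between *ptc1 ptc6* and wild type 0.35, 0.08 and 0.27.

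All 5 late genes lay apart above wild type in *ptc6* cells, by 0.58 (*SQT1*) to 1.93 (*NMD3*), as did 29 of 36 early genes and 29.2% of all genes. The order of the stages in wild type cells rested on few genes. Late minus early was -1.08 there, but -0.38 without wild type array 1, and 0.69 when *TIF6* and *MRT4*, whose products leave the particle in the cytoplasm, were counted as late.

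The other genes of the pathway did not all respond. Of 23 further 60S assembly genes, 16 were valid in wild type cells and 8 of them were down-regulated, with a median of -0.99. Repression was deep for *ALB1*, the partner of Arx1 (-4.42 and -4.12), for *MTR4*, the helicase of the nuclear exosome (-3.69 and -3.62), for *YVH1*, whose product releases Mrt4 (-3.10 and -3.04), and for *SYO1*, an importer of Rpl5 and Rpl11 (-2.74 and -3.08). It was absent at 2-fold for the general export receptor genes *MEX67* (0.01 and -0.01), *MTR2* (-0.03 and 0.26) and *CRM1* (-0.28 and -0.50). In *ptc6* cells 9 of 19 and in *ptc1 ptc6* cells 9 of 20 valid genes of this list were down-regulated.

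Genes for assembly of the small (40S) subunit gave values near those of the 60S assembly genes. In wild type cells 29 of 34 were down-regulated, with a median of -2.60, and *ptc6* minus wild type had a median of 0.84, with 26 of 32 genes apart above wild type and a median lost part of 0.36. Their slope in *ptc6* cells was 0.51 (0.34 to 0.63 over pairs of arrays), close to that of the 60S assembly genes. In *ptc1 ptc6* cells it was 0.63 (0.43 to 0.76), and the median lost part was 0.24.

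The genes for the proteins of the 60S subunit itself differed less from wild type in size in both mutants. The number of genes apart from wild type was lower only in *ptc1 ptc6* cells. They were more deeply repressed than the assembly genes in wild type cells, with 60 of 61 down-regulated and a median of -3.60, yet *ptc6* minus wild type had a median of 0.58, with 53 of 61 genes apart above wild type, and the lost part had one of 0.17, with 1 of 60 genes at 0.25 or more. In *ptc1 ptc6* cells the median difference from wild type was -0.03 and no gene lost 0.25. There, 7 of 61 genes lay apart above wild type and 6 apart below it (19.3% and 23.1% of all genes did). For *ptc1 ptc6* minus *ptc6* their median was -0.58, against -0.45 for the assembly genes, and 50 of 61 genes lay apart below *ptc6*. Among genes with wild type means below -4, the 14 ribosomal protein genes had *ptc6* minus wild type differences of 0.46 to 1.06, and the 9 assembly genes differences of 1.43 to 2.62, with no overlap.

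On the chromosomes, no member of the 58 lay next to another, and 7 lay next to another gene of the ribosome lists used here. In the 4 such pairs with values in all strains both neighbours were repressed, and both were closer to 0 in *ptc6* cells. They were *NMD3* beside *DBP8* (wild type means -4.21 and -2.77, *ptc6* means -2.28 and -1.93), *SSF1* beside *RRP3* (-2.90 and -2.74, -2.03 and -1.77), *NSA2* beside *LCP5* (-1.92 and -3.13, -1.37 and -1.67) and *RRP15* beside *NOC4* (-1.33 and -1.67, -1.16 and -1.34). Most genes of both lists behaved so wherever they lay. In wild type cells 42 of 46 60S and 29 of 34 40S assembly genes were down-regulated. The *ptc6* minus wild type difference was negative in 6 of 46 and 3 of 32. A role of position was not tested.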

How the data were processed

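The deposited values are log2 ratios of rapamycin over mock per array, which the authors obtained with GenePix Pro 6.0 and pre-processed with GEPAS 3.0. The normalization method is not given in the sources used here. Per the labels, spots under 120 µm in diameter or 150 fluorescence units were left out, and the values of dye-swapped arrays already run in 1 direction. ORFs were named through the yeast annotation (release R64), used for names, chromosome and neighbours only, and 5639 of 6212 rows matched.

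With Python 3.11.15, pandas 2.3.3 and numpy 2.4.6, the mean of both arrays was taken per strain and down-regulation called below -1, after the study's methods, which use a 2-fold limit. Differences between strains are differences of these means, with the range over the 4 pairs of arrays. The arrays' number limits precision. The 58 genes, their roles and stages, the comparison lists and the rules for named genes were chosen with earlier results of these data known. Values on every array are given for the lowest and highest wild type mean in each role, the largest and smallest differences between strains, the late factors and *RPF2*, and for others chosen after their values were seen. The code for differences, slopes and counts was tested on simulated data. Promoter elements were not analysed here.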

Additional observations from a re-analysis of the deposited data

How the results depend on the processing

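No paired analysis was possible because no result comes from a test: arrays 1 and 2 of a strain are dye swaps of 1 pair of RNA extracts, and their number pairs nothing across strains. Of the values checked for the group of genes, 137 stayed within the spread between arrays (for counts, within 1.5 times) and 23 moved by more. Some of the 137 could not move. Centring the arrays leaves every late minus early difference as it was. The 44 genes valid in both *ptc1 ptc6* and wild type cells are the same as those valid in all 3 strains. The count of 137 is therefore no measure of stability, and the spread was taken from the same arrays. For single genes that spread is made from the same arrays, so leaving out 1 array could not pass it and only signs are given: of 43 differences from wild type, 10 changed sign in at least 1 setting, those of *DBP7* and *SDA1* in both mutants, of *IPI1* and *TIF6* in *ptc6* and of *BRX1*, *NIP7*, *RRP8* and *SQT1* in *ptc1 ptc6* cells. Without 1 array *SDA1* ran from -1.57 to 1.29 in *ptc6* cells and from -1.62 to 1.24 in *ptc1 ptc6* cells, *BRX1* from -0.64 to 0.55 and *NIP7* from -0.32 to 0.93. With the genes valid in all 3 strains, wild type cells had a median log2 ratio of -2.21 and *ptc6* cells one of -1.57, and without the 8 genes whose arrays differed by over 1 (a setting chosen after seeing the data) -2.11 and -1.68. The *ptc1 ptc6* median ran from -2.31 to -1.93 when either array was left out. At 3-fold, 37 of 46 valid 60S assembly genes were down-regulated in wild type, 30 of 53 in *ptc6* and 35 of 49 in *ptc1 ptc6* cells. The share over all genes at 3-fold was not computed.

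The late minus early difference was the least stable. In wild type cells it was -0.81 with a value on at least 1 array, -1.26 with genes valid in all strains, -0.60 without genes with a wide gap, -0.32 with *ARX1* as nucleoplasmic, 0.17 with nucleoplasmic genes as late and 0.69 with *TIF6* and *MRT4* as late, and from -1.31 to -0.38 without 1 array. In *ptc6* cells the same settings gave -0.0075 (valid in all strains), -0.0875 (wide gap), 0.39 (*ARX1*) and 0.64 (*TIF6* and *MRT4*), and in *ptc1 ptc6* cells -0.53 (wide gap) and 0.27 (*TIF6* and *MRT4*). For *ptc6* minus wild type it was -0.13 with *TIF6* and *MRT4* as late and -0.0675 with nucleoplasmic genes as late. For *ptc1 ptc6* minus wild type it ran from -0.17 to 0.26 without 1 array. Beyond what these regroupings do by construction, the cause was not tested. The alternatives for promoter elements were not run.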
